A study of Mus musculus with 35 samples.

Results

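The ADAM family (a disintegrin and metalloprotease) consists of membrane-anchored proteins with a metalloprotease domain and a disintegrin domain. Its members were chosen as the protein-coding genes whose symbol is Adam, a number and at most 1 letter, which leaves out the secreted Adamts genes. This rule found 33 of the 55356 genes in the count table, among 21951 protein-coding genes of the annotation. By known role, 20 of the 33 are testis or sperm genes, 9 are widely expressed proteases, 3 are neural and 1 is epididymal. These role names come from prior knowledge and differ from the classes by level below, in which 5 of the 9 proteases are widely expressed. The study used adult mice of the C57BL/6J strain, with no treatment and no genetic change named in the labels, and looked for full-length transcripts of pseudogenes. Short-read RNA libraries, depleted of ribosomal RNA and strand-specific, were made from brain, cerebellum, heart and colon of females and of males, from ovary and from testis. These 10 groups held 3 libraries each, except male heart with 2, which gave 29 libraries. Long-read Iso-seq on 6 flow cells supplied transcript models from ovary, from testis and from a pool of the 4 somatic tissues of each sex, so an Iso-seq transcript cannot be assigned to 1 somatic tissue.

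In this family, proteolytically active members cut the extracellular part off other membrane proteins, which releases growth factors, cytokines and receptor domains. Members without an active site bind other proteins instead, and 3 of them, ADAM11, ADAM22 and ADAM23, are receptors for the secreted LGI proteins of the synapse. Many rodent members are made in male germ cells, where they are processed during sperm maturation and act in the passage of sperm into the oviduct and in binding to the egg.

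Library totals ran from 11742417 to 36194255 counts with a median of 24403774. Colon libraries held 11742417 to 18890658 counts, the 4 lowest totals among them, and testis libraries held 28459258 to 30925443. Levels are given as FPKM, the counts of a gene divided by the length of its exons and by the library total. All 33 members passed the filter on low counts, and 29911 of the 55356 genes were tested in all, and 9905 genes had no count in any library. Differences were tested with edgeR on raw counts in 1 fit over all 29 libraries, and a member was called at an adjusted p under 0.05 over all 29911 genes. The labels do not say which libraries come from the same animal, so p-values measure spread between samples. Count-based intervals and floors cover counting error only.

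Marker genes of the labelled tissues were checked first. The 7 spermatid markers summed to between 20166 and 24297 FPKM in the 3 testis libraries, with *Prm2* the most abundant, and the 4 Leydig cell markers to between 782 and 1101 FPKM. Cardiomyocyte markers summed to 7153 to 16902 FPKM in heart, and colon epithelium markers to 8490 to 16390 FPKM in colon. Neuron markers stood at 1023 to 1485 FPKM in brain and 497 to 831 FPKM in cerebellum. Granulosa cell markers reached 162 to 231 FPKM in ovary, where all 4 oocyte markers had a mean of at least 1 FPKM. *Gdf9* of the oocyte list averaged 176 FPKM in heart, where *Zp3* had no count. The ovary label thus rests on the granulosa cell markers and the other 3 oocyte genes. The epididymis list summed to 250 to 326 FPKM in testis, of which *Cst8* had a mean of 262 FPKM. The 4 cerebellar markers summed to 1283 to 2284 FPKM in cerebellum and 39.1 to 50.7 FPKM in brain. Not every list set testis apart, since Sertoli cell markers were at 46.0 to 50.9 FPKM in testis and 79.2 to 97.9 FPKM in ovary, and spermatogonia markers at 23.7 to 28.9 FPKM in testis and 26.7 to 39.4 FPKM in cerebellum.

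Some libraries stood apart from the others of their tissue. Female heart replicate 3 had 7153 FPKM of the 3 cardiomyocyte markers, against 14439 to 16902 FPKM in the other 4 heart libraries, and 24.1 FPKM of the 4 lymphocyte markers, against 1.19 to 2.16 FPKM. Its fibroblast markers summed to 99.1 FPKM, against 25.9 to 51.8 FPKM, and its scaling factor was 1.12 where the other heart libraries had 0.604 to 0.711. In male colon replicate 1 the lymphocyte markers summed to 38.9 FPKM, led by *Cd79a* at 23.1 FPKM, against 1.61 to 3.24 FPKM in the other 5 colon libraries. Spermatid markers summed to 27.6 FPKM in female colon replicate 1, 17.9 FPKM in female colon replicate 3 and 14.4 FPKM in male colon replicate 3, against 0.0991 to 2.01 FPKM in the other 3 colon libraries. *Prm2* led in those 3 libraries and *Acrv1* of the same list had no count in any colon library. Where leaving out any of these libraries changed a call named below, or moved a value of interest, the value without it is given. In whole tissue, fewer cells of a type and less RNA per cell cannot be told apart.

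Members were classed by tissue means, as a description with no test, with 1 FPKM as the level that counts as expressed. Testis-only members, at 1 FPKM or more in testis and in no other tissue, numbered 17 of 33, or 51.5%, against 6.47% of the 21658 protein-coding genes of the count table. Widely expressed members, at that level in 4 or more of 6 tissues, numbered 8, or 24.2%, against 53.0%, and were 5 of the proteases and the 3 neural members. Expression in testis held for 29 members (87.9%, against 60.2% of protein-coding genes), and in ovary for 10, in brain, cerebellum and colon for 9 each and in heart for 7. Outside testis these were 21.2% (heart) to 30.3% (ovary) of members, against 52.3% (heart) to 59.1% (cerebellum) of protein-coding genes. The remaining 6 expressed members were *Adam1a*, *Adam4*, *Adam8*, *Adam12*, *Adam32* and *Adam33*, and *Adam7* and *Adam28* stayed under 1 FPKM everywhere. Several sat close to the threshold, with means of 1.02 FPKM for *Adam1a* in ovary, 1.11 FPKM for *Adam32* in brain, 1.05 FPKM for *Adam12* in cerebellum and, below it, 0.951 FPKM for *Adam12* in brain and 0.863 FPKM for *Adam1a* in cerebellum. Without ovary replicate 1, *Adam1a* became testis-only, and without female heart replicate 2, *Adam11* was no longer widely expressed. Tau, which runs from 0 for an even level to 1 for a single tissue, had, among expressed genes, a median of 0.999 over the testis or sperm members, 0.787 over the neural members, 0.457 over 8 of the 9 widely expressed proteases and 0.680 over 16552 protein-coding genes.

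**Figure D1:**
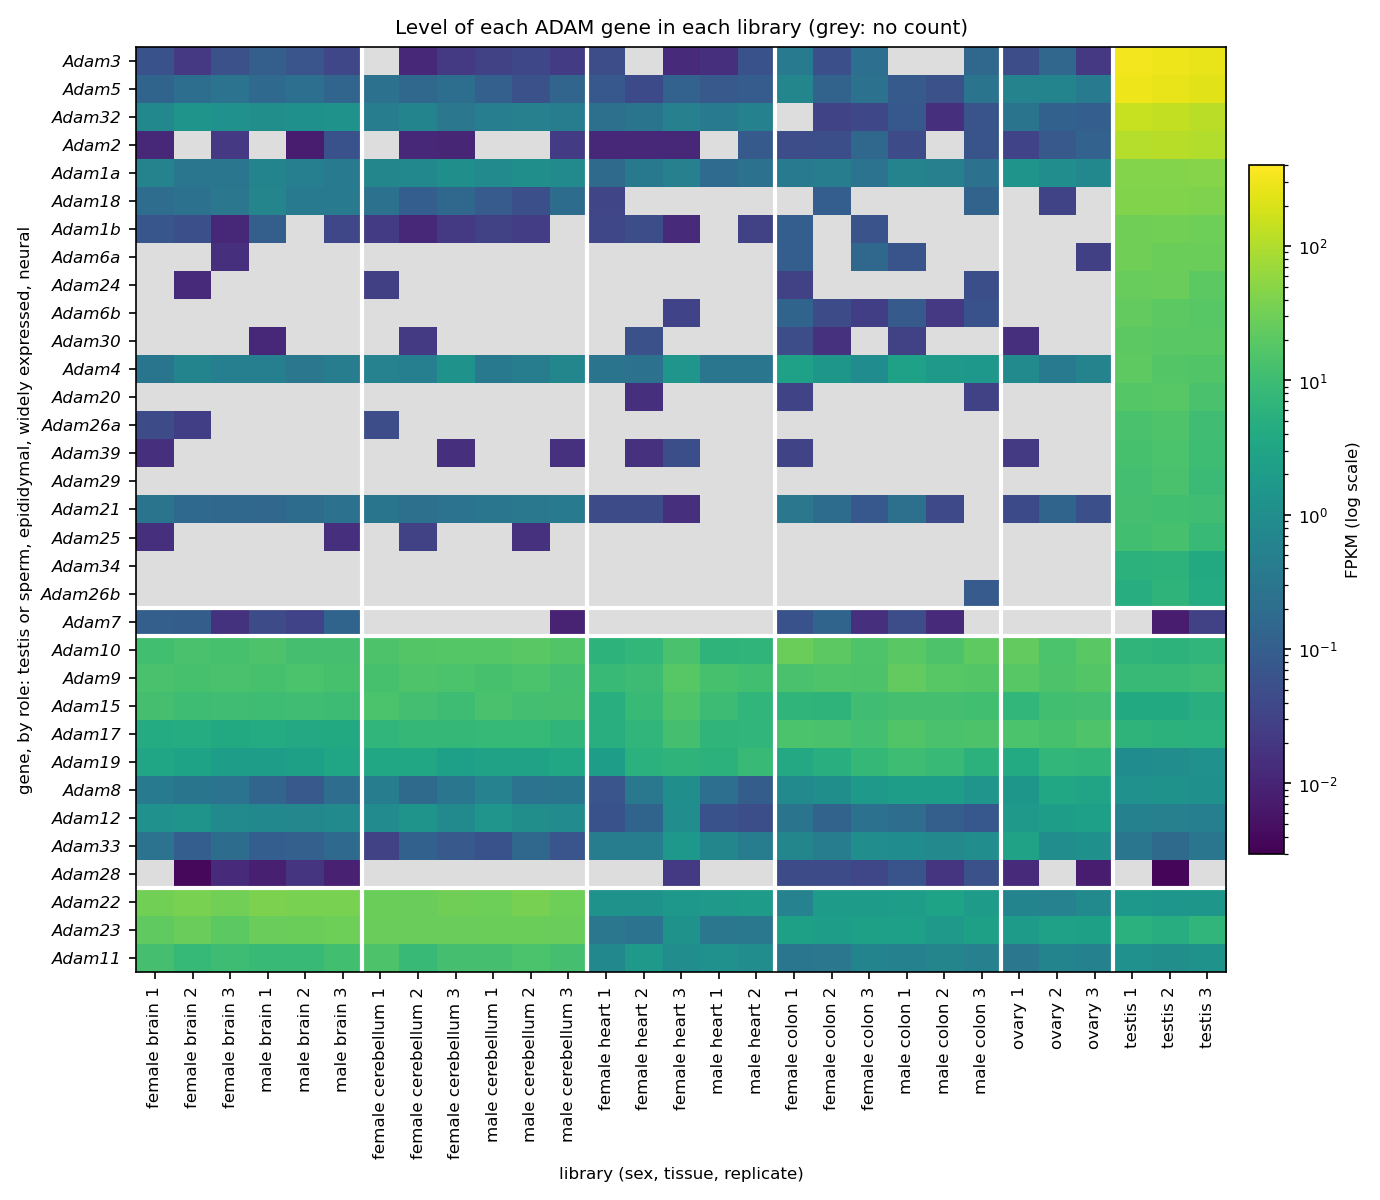
FPKM on a log colour scale for the 33 ADAM genes (lines, by role) in the 29 libraries (columns, by tissue and sex), with grey for no count. Of the 20 testis or sperm genes, all have their highest level in the 3 testis libraries, and *Adam22*, *Adam23* and *Adam11* are highest in brain and cerebellum.

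Testis held most of the family's transcripts. Summed over the 33 members, the level was 1242, 1172 and 1066 FPKM in testis replicates 1, 2 and 3, and between 30.9 and 138 FPKM in every other library. The 20 testis or sperm members made up 97.0%, 97.1% and 96.2% of these testis sums. Outside testis the same 20 genes summed to 0.955 to 4.93 FPKM, so no other library came near the testis level.

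*Adam3* (ENSMUSG00000031553) encodes the sperm surface protein needed for passage through the uterotubal junction and for zona binding. It was at 324, 293 and 275 FPKM in the 3 testis libraries, and its lowest, median and highest levels in the other 26 libraries were 0, 0.0374 and 0.408 FPKM. No library outside testis came within the testis range, and *Adam3* had the highest testis mean of the family, above 99.3% of protein-coding genes there. Relative to the mean of the other 9 groups on the log2 scale, it was higher by 12.90 (SE 0.25, edgeR adjusted p 1.82e-24), in 3 of 3 testis libraries.

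*Adam2* encodes the beta subunit of fertilin, the heterodimer first described on sperm, and was at 106, 112 and 102 FPKM in testis against 0, 0.0118 and 0.155 FPKM (lowest, median, highest) elsewhere. All testis libraries were above all others, by 12.29 log2 units (SE 0.23, edgeR adjusted p 1.02e-24). *Adam1a* and *Adam1b* encode alternative alpha subunits that pair with ADAM2, of which the *Adam1a* product stays in the endoplasmic reticulum and is needed for ADAM3 to reach the cell surface. *Adam1a* was at 44.9, 45.3 and 47.2 FPKM in testis and at 0.179, 0.508 and 1.35 FPKM (lowest, median, highest) elsewhere, a difference of 6.74 log2 units (SE 0.13, edgeR adjusted p 2.48e-24). Its level outside testis was low but present in all 26 libraries. *Adam1b* had 31.3, 32.1 and 30.1 FPKM in testis and at most 0.105 FPKM elsewhere, and no count in ovary.

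*Adam5* and *Adam32* lie beside *Adam3* in the genome, and *Adam5* encodes a sperm surface protein that forms complexes with ADAM3. *Adam5* was at 298, 268 and 238 FPKM in testis against 0.0428, 0.150 and 0.685 FPKM (lowest, median, highest) elsewhere, higher by 10.82 log2 units (SE 0.18, edgeR adjusted p 2.48e-25). *Adam32* was at 146, 134 and 117 FPKM in testis against 0, 0.409 and 1.37 FPKM elsewhere, higher by 9.12 log2 units (SE 0.14, edgeR adjusted p 1.15e-25). Both were far above the other libraries, though *Adam5* had counts in all 29 libraries and *Adam32* in 28.

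With the exons of the counted loci, the remaining testis or sperm members were all below *Adam1a*. With the same counts divided by exon lengths of the reference, the *Adam1a* locus had a testis mean of 18.3 FPKM, below *Adam18* (41.0 FPKM), *Adam6a* (28.9 FPKM) and others. That length of 7512 bases, in place of 2994 counted, also includes exons of Gm42878, so the lower rank may not be that of *Adam1a* alone. *Adam18* had 42.1, 41.9 and 40.5 FPKM in testis, and the gene copies *Adam6a* and *Adam6b*, both needed for normal sperm migration in mice, had 31.1, 28.7 and 28.6 FPKM and 23.9, 20.8 and 18.9 FPKM. The other 11 of these genes had testis means from 5.11 FPKM for *Adam26b* to 24.2 FPKM for *Adam24*. *Adam29* and *Adam34* had no count in any of the 26 other libraries, and *Adam20* and *Adam26b* had 3 counts each. In ovary 9 of the 20 had no count, and 14 had at least 1 group with none.

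**Figure D2:**
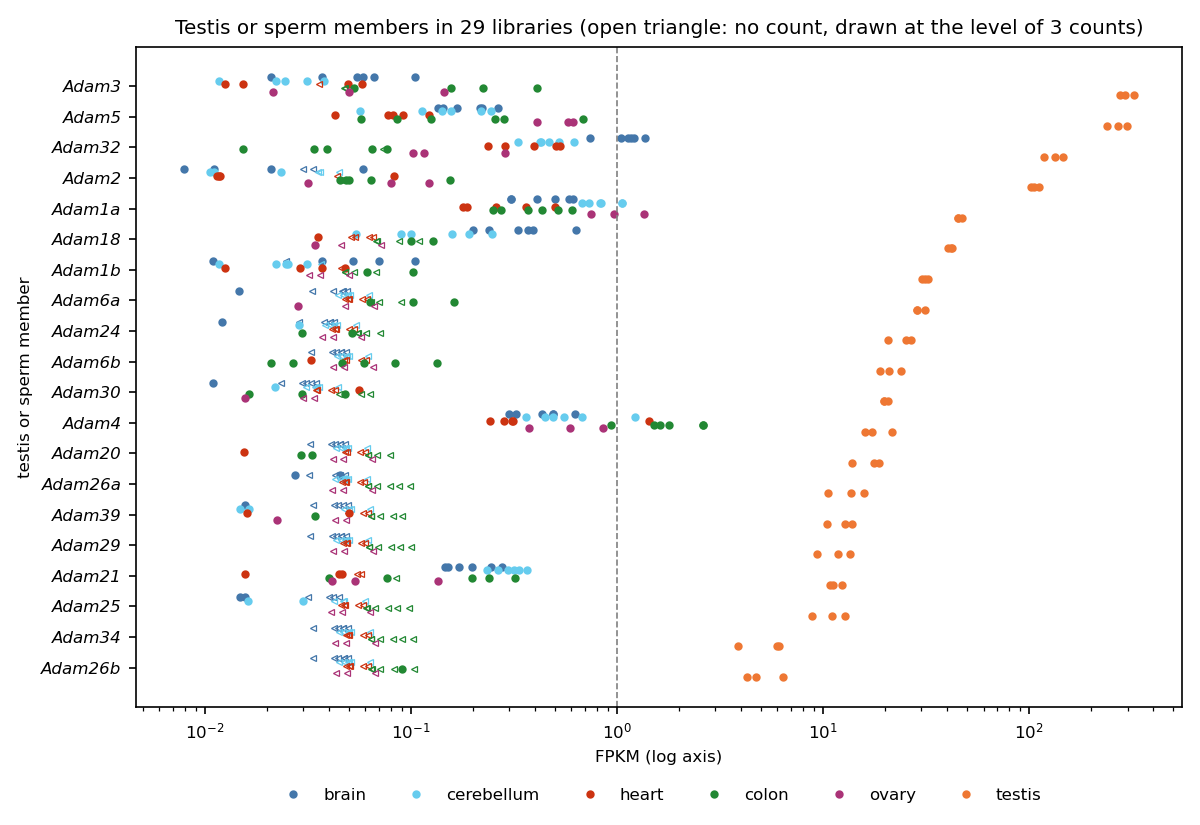
FPKM on a log axis of the 20 testis or sperm members in each of 29 libraries, coloured by tissue, with the dashed line at 1 FPKM and open triangles for libraries with no count, drawn at the level that 3 counts would give. For each gene the 3 testis libraries lie to the right of all others, from 3.87 FPKM for *Adam34* to 324 FPKM for *Adam3*.

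In testis against the other 9 groups, 22 of 33 members were called higher and 7 lower, against 40.6% and 26.7% of all genes tested. All 20 testis or sperm members were among the higher ones and did not overlap with other libraries, as 57.5% of all genes called higher did not. That list was chosen by known role, so its direction was known beforehand. It makes up most of the higher calls and could hardly add lower ones, so neither share is read as a result about the family. The median of the fitted log2 differences was 11.63 for the 20, beside 0.11 over all genes, but such values depend on the prior count where a group has no count. From pooled counts over library totals, with a floor of 3 counts over the 26 other libraries for genes without any, the median was 11.30 log2 units, a 2515-fold difference. By that measure *Adam29* was at least 5790-fold and *Adam34* at least 2595-fold higher in testis. *Adam20* was 8435-fold higher, with a 95% counting interval from 2884 to 40921, and *Adam26b* 2498-fold higher, from 853 to 12133. The smallest ratio was 24.2-fold for *Adam4*. The deposited pairs also name *Cox16*, a widely expressed gene, and Gm20498 for its locus, but the 2470 counted bases lie in 1 exon within the *Adam4* gene. Whether reads of those genes add to its level was not tested.

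Testis against ovary shares its testis libraries with the preceding comparison. There 23 of 33 members were called higher and 6 lower, against 37.8% and 26.5% of all genes tested, and none of these 29 overlapped between the 3 testis and 3 ovary libraries. Over all genes, 86.0% of those called higher and 98.6% of those called lower did not overlap either, so with 3 libraries on each side this is common. *Adam32* in ovary had 0.287, 0.116 and 0.102 FPKM, lower than testis by 10.33 log2 units (SE 0.36, edgeR adjusted p 2.31e-17). *Adam5* had 0.580, 0.614 and 0.411 FPKM in ovary, a difference of 9.61 (SE 0.42, edgeR adjusted p 8.13e-16). These traces in ovary were small but present in every library. *Adam2* had 0.0317, 0.0803 and 0.122 FPKM, *Adam3* 0.0498, 0.144 and 0.0213 FPKM and *Adam1a* 1.35, 0.966 and 0.749 FPKM in ovary, with log2 differences of 10.92, 12.60 and 6.15 (edgeR adjusted p 1.66e-15, 3.70e-15 and 2.06e-15). For the 20 testis or sperm members, 9 at a lower bound and 4 with 1 to 3 counts in ovary, the median ratio from counts was 9.87 log2 units, while the fitted median was 11.86 beside 0.15 over all genes.

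Scaling moved the median of all genes by more than 0.1 log2 in several comparisons. In testis against the other groups it was 0.11 with TMM factors, 0.24 with RLE factors, 0.26 with DESeq2 and -0.12 with library totals alone, and in testis against ovary 0.15, 0.33, 0.35 and -0.38. Those shifts are small beside the differences of the sperm genes, but against ovary they are as large as some differences of the proteases below.

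The testis or sperm members also differed from the rest in gene structure. A single coding exon was found in 15 of the 20, in none of the other 13 members and in 16.3% of protein-coding genes. The 5 exceptions were *Adam2*, *Adam3*, *Adam5*, *Adam18* and *Adam32*, with 19 to 22 coding exons. Iso-seq supplied the counted locus of 28 of 33 members, against 58.6% of protein-coding genes, with 120 transcript models in all. Of these, 82 belonged to testis or sperm members, led by *Adam3* with 25 and *Adam5* with 13, and *Adam15* had 12 among the widely expressed proteases.

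The genes were clustered. Chromosome 8 carried 13 of 33 members, against 4.74% of protein-coding genes, and 12 of those 13 were testis or sperm genes. With neighbours at most 200000 bases apart, 20 members fell into 7 clusters. The largest ran over 414682 bases at chr8:24602246-25016927 on the minus strand, with *Adam18*, *Adam3*, *Adam5*, *Adam32* and *Adam9* in this order and no other protein-coding gene between them. Only 806 bases separated *Adam32*, at 133 FPKM in testis and 1.37 FPKM or less in every other library, from *Adam9*, a protease found in all 6 tissues at means of 9.01 to 17.2 FPKM. A sperm gene and the member with the most even level over tissues (tau 0.243) thus lie side by side.

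A further stretch at chr8:40675077-40827037 held *Adam24*, *Adam25*, *Adam20* and *Adam39*, and another at chr8:43519762-43710049 held *Adam26b*, *Adam26a* and *Adam34*. The testis means in the first were 24.2, 10.9, 16.7 and 12.4 FPKM and in the second 5.11, 13.3 and 5.31 FPKM. Except *Adam24*, which shared none, these genes share sequence windows with other genes, so some of their reads may not be placed uniquely. Of 75-base windows of the transcript, 25.6% of those of *Adam20*, 22.9% of *Adam39*, 22.3% of *Adam25*, 25.7% of *Adam26a*, 22.6% of *Adam26b* and 13.4% of *Adam34* also occurred in another gene. For *Adam6a* and *Adam6b* the shares were 19.7% and 19.8%, and for *Adam1b* 31.1%, shared with *Adam1a*. The annotated gene Gm42878 overlaps *Adam1a* and is counted in the same locus, so the *Adam1a* level includes it. Levels of the members with shared windows are uncertain in part.

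**Figure D3:**
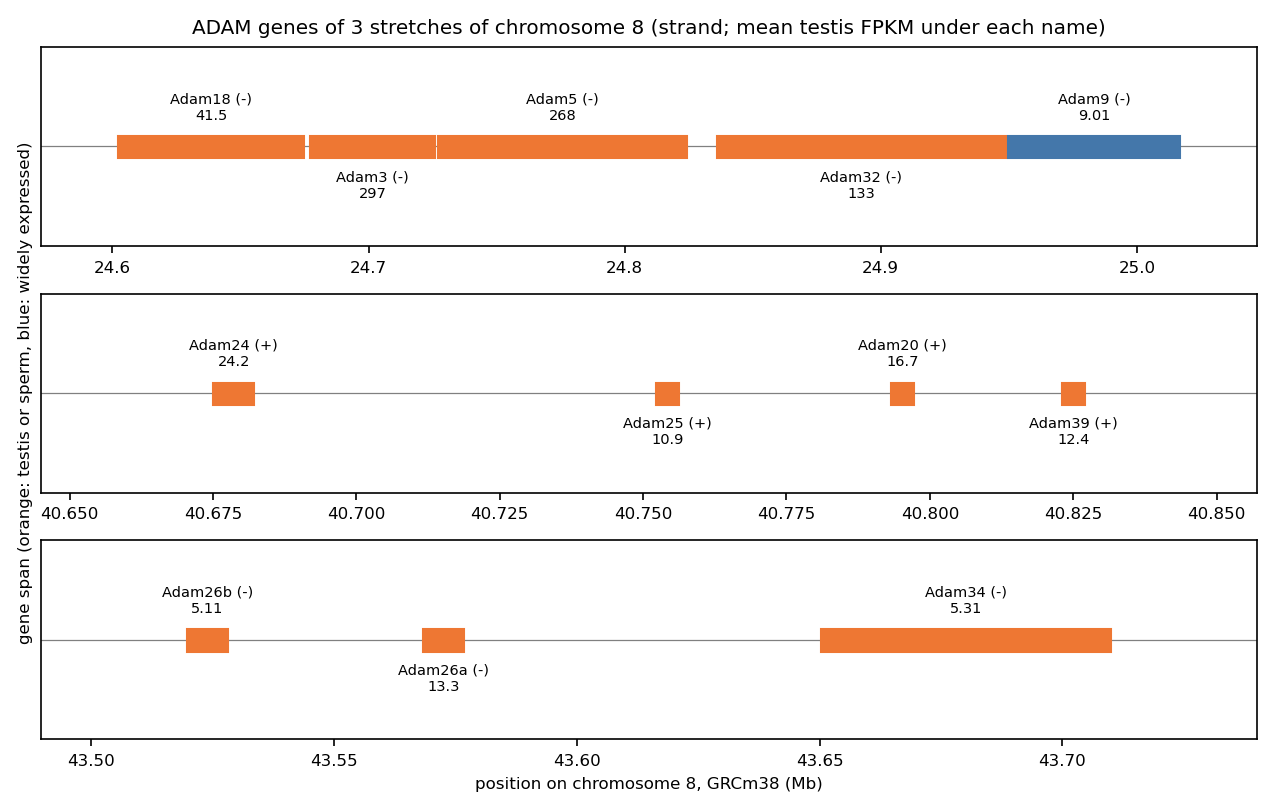
Gene spans of 12 ADAM genes in 3 stretches of chromosome 8 (GRCm38, position in Mb), with testis or sperm genes in orange and the widely expressed *Adam9* in blue. The strand and the mean testis FPKM are written at each gene, from 5.11 for *Adam26b* to 297 for *Adam3*.

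Promoter windows of 300 bases, 250 before to 50 after the start, came from RefSeq on GRCm38.p6 and were found for 17 of the 33 members, 19 windows in all. They are described by role but do not cover each list. All 10 windows of testis or sperm members were of genes with a single coding exon, and none was of *Adam2*, *Adam3*, *Adam5*, *Adam18* or *Adam32*. The 7 windows of widely expressed proteases came from 5 genes, since *Adam19* had several. Both strands were searched for the TATA box (TATAAA), the CCAAT box (CCAAT), the GC box (GGGCGG), the cAMP response element (TGACGTCA), its first bases alone (TGACG, which overlaps the full element) and an X-box part (GTTGCC). Of 32851 promoters, these were in 13.6%, 37.4%, 35.7%, 1.79%, 20.8% and 12.5%. Of the 10 windows of testis or sperm members, 3 had TATA box letters (first base 219, 205 and 104 bases before the start), 6 a CCAAT box, 1 the X-box part and 0 a GC box, and their median GC content was 39.5%, against 52.7% over all promoters. Of the 7 windows of widely expressed proteases, 0 had a TATA box, 4 a CCAAT box, 5 a GC box, 1 the TGACG part and 1 the X-box part, with a median GC content of 60.3%. The 2 neural windows had none of these motifs and a median GC content of 68.2%. A median of 1 CpG per window in testis or sperm members compares with 11 in widely expressed proteases, 25 in neural members and 7 over all promoters. A match is a description of letters and says nothing of what binds there.

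The sequences below run from 120 bases before to 30 after the start, 5′ to 3′ on the strand of the gene, with motif matches in capitals. They set 2 testis genes that are near copies of each other, and the sperm migration gene *Adam6a*, beside 2 widely expressed proteases and a neural member. *Adam20* is at chr8:40793153-40793302 (plus), *Adam25* at chr8:40752088-40752237 (plus), *Adam6a* at chr12:113543788-113543937 (plus), *Adam10* at chr9:70678862-70679011 (plus), *Adam17* at chr12:21373603-21373752 (minus) and *Adam23* at chr1:63445771-63445920 (plus).

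Adam20: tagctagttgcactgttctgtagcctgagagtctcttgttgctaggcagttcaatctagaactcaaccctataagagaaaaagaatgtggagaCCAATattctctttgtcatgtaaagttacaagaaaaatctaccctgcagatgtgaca
Adam25: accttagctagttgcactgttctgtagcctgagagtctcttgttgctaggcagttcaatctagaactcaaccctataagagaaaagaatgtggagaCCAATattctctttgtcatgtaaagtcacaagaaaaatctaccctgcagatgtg
Adam6a: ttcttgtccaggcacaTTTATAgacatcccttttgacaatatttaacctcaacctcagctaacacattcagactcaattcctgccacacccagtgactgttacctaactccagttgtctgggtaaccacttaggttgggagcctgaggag
Adam10: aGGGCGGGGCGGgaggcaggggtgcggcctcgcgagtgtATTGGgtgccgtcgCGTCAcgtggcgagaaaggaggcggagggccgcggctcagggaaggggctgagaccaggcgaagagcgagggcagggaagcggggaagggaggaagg
Adam17: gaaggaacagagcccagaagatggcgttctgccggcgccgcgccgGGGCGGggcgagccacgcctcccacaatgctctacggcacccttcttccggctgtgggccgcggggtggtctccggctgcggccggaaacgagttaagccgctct
Adam23: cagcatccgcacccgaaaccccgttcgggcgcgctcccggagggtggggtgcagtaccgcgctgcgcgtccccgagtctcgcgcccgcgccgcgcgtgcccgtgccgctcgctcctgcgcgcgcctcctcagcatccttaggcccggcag

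The widely expressed proteases are the members that shed other proteins. *Adam10* (ENSMUSG00000054693), which cuts Notch receptors and the amyloid precursor protein, had lowest, median and highest levels of 11.1, 12.7 and 15.0 FPKM in brain, 14.7, 17.4 and 19.3 FPKM in cerebellum and 15.0, 19.9 and 28.2 FPKM in colon. In the 5 heart libraries it was at 6.12, 7.33 and 13.2 FPKM (female) and 6.54 and 6.86 FPKM (male), in ovary at 23.4, 14.2 and 19.4 FPKM and in testis at 6.77, 6.07 and 7.04 FPKM. It was the highest member in colon and in ovary, and lowest in testis and in heart without female heart replicate 3. Testis was below the other groups by -0.86 log2 units (SE 0.14, edgeR adjusted p 5.69e-06), and 3 of the 5 heart libraries were inside the testis range.

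*Adam17*, the protease that releases tumour necrosis factor and ligands of the EGF receptor, had 3.73, 4.10 and 4.38 FPKM (lowest, median, highest) in brain and 6.78, 7.73 and 8.02 FPKM in cerebellum. In colon its levels were 11.6, 14.0 and 16.4 FPKM, in ovary 14.3, 12.7 and 15.8 FPKM and in testis 6.31, 5.86 and 5.51 FPKM. Brain was the lowest tissue and did not overlap with any other. Heart was at 5.11, 6.94 and 12.2 FPKM in females and 6.91 and 7.14 FPKM in males. Its call in testis against the other groups, -0.23 log2 units (edgeR adjusted p 0.037), was lost without testis replicate 1, 2 or 3 (-0.27, -0.18 and -0.19) or without male heart replicate 2 (-0.23, adjusted p 0.054). Against ovary, testis was lower by -0.64 (SE 0.13, edgeR adjusted p 0.000113), with no overlap of the libraries, and with library totals by -1.28.

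*Adam9* and *Adam15* encode proteases of many tissues, *Adam15* with roles in cell adhesion. Of the exon bases of *Adam15*, 736 of 3410 overlap a gene on the opposite strand, as do 1067 of 6330 of *Adam19*, so their levels may include reads of those genes. *Adam9* had testis levels of 8.98, 8.35 and 9.70 FPKM against 8.74, 13.8 and 23.4 FPKM (lowest, median, highest) elsewhere, lower by -0.43 log2 units (SE 0.10, edgeR adjusted p 0.000615). *Adam15* had 3.92, 3.88 and 5.08 FPKM in testis against 4.86, 10.8 and 15.2 FPKM elsewhere, lower by -1.04 (SE 0.18, edgeR adjusted p 1.40e-05). Both overlapped with other libraries only through female heart replicate 1, the lowest outside testis. *Adam19*, a protease of the developing heart and of neuregulin processing, had 0.949, 0.971 and 1.18 FPKM in testis against 2.16, 3.64 and 10.1 FPKM elsewhere, lower by -1.87 (SE 0.26, edgeR adjusted p 6.21e-07). It was the only one of the 7 members called lower whose testis libraries lay under all 26 others. Of all genes called lower, 28.0% did so.

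Of the 9 proteases, 6 were called lower in testis than in ovary, against 26.5% of all genes tested. Markers of some other cells were lower in testis as well, with smooth muscle at 127 to 170 FPKM against 940 to 1987 FPKM in ovary. Fibroblast markers were at 40.8 to 70.9 FPKM against 127 to 216 FPKM and endothelium markers at 4.93 to 6.29 FPKM against 36.3 to 55.8 FPKM. Other lists were higher in testis, among them microglia and macrophage markers, led there by *Aif1*, at 183 to 201 FPKM against 30.4 to 35.9 FPKM. The part of these markers was not tested. *Adam19* in ovary was at 4.13, 7.34 and 6.69 FPKM, and testis was lower by -1.93 (SE 0.31, edgeR adjusted p 7.20e-06). *Adam10* differed by -0.87 (edgeR adjusted p 0.000129), and by -1.49 log2 units from pooled counts over library totals. *Adam33*, a protease of mesenchymal cells, was at 0.306, 0.180 and 0.307 FPKM in testis and 2.72, 0.968 and 1.10 FPKM in ovary, a difference of -1.91 (SE 0.46, edgeR adjusted p 0.000785). *Adam12*, a protease of muscle and of growth factor release, was at 0.545, 0.523 and 0.498 FPKM in testis and 1.77, 2.21 and 2.30 FPKM in ovary, a difference of -1.37 (SE 0.45, edgeR adjusted p 0.00928). The ovary libraries were above the testis libraries in each case. Against the log2 mean of the other groups, *Adam12* was not called in testis (0.39, edgeR adjusted p 0.309, and 0.55 and called higher without female heart replicate 3). That contrast weighs each group equally on the log2 scale. From pooled counts over library totals, the ratio of *Adam12* in testis to the 26 other libraries was 0.610. *Adam15* was called lower as well, by -0.60 (edgeR adjusted p 0.0209), but not without ovary replicate 2 or 3 (-0.51 and -0.46) or testis replicate 1 or 2 (-0.53 and -0.50). From pooled counts over library totals its difference was -1.27 log2 units.

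*Adam8*, a protease of immune cells, was higher in testis than in the mean of the other groups by 1.46 log2 units (SE 0.32, edgeR adjusted p 0.000246), with 1.19, 1.28 and 1.11 FPKM in testis. Its range elsewhere was 0.0677 to 3.40 FPKM, so the libraries overlapped and ovary and colon included higher ones. The neural members did not move alike in this comparison. *Adam22* and *Adam11* were called lower, by -1.69 (SE 0.22, edgeR adjusted p 1.65e-07) and -0.84 (edgeR adjusted p 0.00253), and *Adam23* higher by 0.51 (edgeR adjusted p 0.00883), a call lost without testis replicate 3 (0.33, adjusted p 0.16). The contrast weighs each of the 9 groups equally on the log2 scale, so *Adam23* was called higher although its mean of 5.75 FPKM in testis was below the 13.0 FPKM over the 26 others. At their main counted loci, all 3 neural members were higher in testis than in ovary, *Adam23* by 1.92 (edgeR adjusted p 1.77e-07), with no overlap. A second counted locus of *Adam22* went the other way, at 0.132 to 0.149 FPKM in testis and 0.387 to 0.587 FPKM in ovary.

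**Figure D4:**
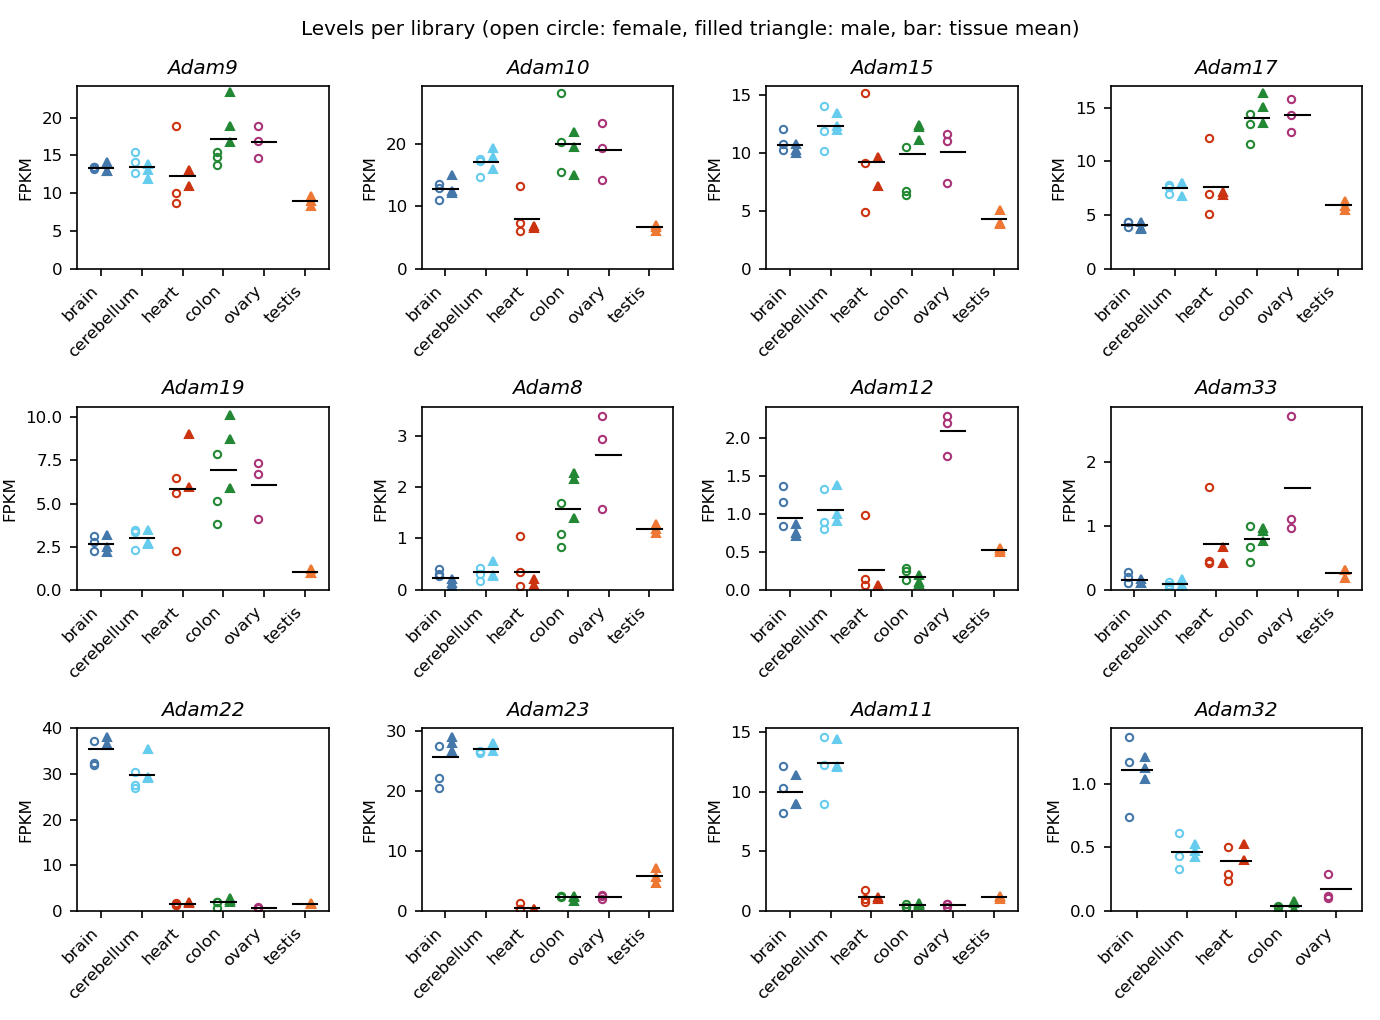
FPKM per library, on a linear axis from 0, of 8 widely expressed proteases, 3 neural members and *Adam32*, by tissue, with open circles for female and filled triangles for male libraries and a bar at the tissue mean. *Adam22*, *Adam23* and *Adam11* are highest in brain and cerebellum, at 8.19 FPKM or more in each of the 12 libraries, and the testis libraries of *Adam32* are left out of its panel.

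The neural members are catalytically inactive receptors of the synapse. *Adam22* (ENSMUSG00000040537), the receptor of LGI1, was at 31.9, 36.5 and 38.2 FPKM (lowest, median, highest) in brain and 26.8, 29.3 and 35.5 FPKM in cerebellum, against 0.551, 1.97 and 2.88 FPKM in the 11 heart and colon libraries. With the exons of its counted locus it was the highest member in brain and in cerebellum, a rank that depends on exon length as given below. Neural tissue was higher by 3.99 log2 units (SE 0.15, edgeR adjusted p 4.46e-18), in 12 of 12 libraries. A second counted locus of *Adam22*, at the 3′ end and with 4157 bases in 1 exon, was at 13.3 to 18.8 FPKM in brain and 11.0 to 17.9 FPKM in cerebellum. It was at 0.387 to 0.587 FPKM in ovary and 0.132 to 0.149 FPKM in testis.

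*Adam23*, a further LGI1 receptor, was at 20.5, 27.1 and 29.1 FPKM in brain and 26.4, 26.6 and 28.0 FPKM in cerebellum, against 0.272, 1.72 and 2.44 FPKM in heart and colon, higher by 4.52 (SE 0.15, edgeR adjusted p 2.69e-19). *Adam11*, which binds LGI proteins at cerebellar synapses, was at 8.19, 9.65 and 12.1 FPKM in brain and 8.97, 12.2 and 14.6 FPKM in cerebellum, against 0.303, 0.640 and 1.73 FPKM in heart and colon, higher by 3.70 (SE 0.17, edgeR adjusted p 2.64e-16). None of these 3 overlapped between neural tissue and heart or colon, as 46.5% of all genes called higher did not. Without female heart replicate 3 the differences of *Adam22*, *Adam23* and *Adam11* were 3.96, 4.68 and 3.62. They made up 57.0% to 62.4% of the summed family FPKM in brain and 51.0% to 56.5% in cerebellum. Exon length matters here, since the reference has 14348 bases for *Adam22* in place of 3089 and 4913 for *Adam10* in place of 10354. With the same counts divided by reference lengths, the neural share was 27.6% to 32.2% in brain and 22.7% to 28.9% in cerebellum. *Adam10* was then the highest member in both, with a mean of 27.1 FPKM in brain against 7.63 FPKM for *Adam22*, and the 3 neural members were no longer widely expressed. The counted exons of *Adam22* and *Adam23* span fewer bases than the reference and those of *Adam10* more. These values are thus not measured over the reference exons and show only how far shares and ranks depend on the length used. Comparisons of 1 counted locus between tissues do not depend on the length used. They can differ between loci of 1 gene, as those of *Adam22* did between testis and ovary.

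In neural tissue (brain and cerebellum of both sexes) against heart and colon, 8 members were called higher and 7 lower, against 38.2% and 26.3% of all genes tested. Of the 33 members, 8 had 10 counts or fewer over the libraries of this comparison and passed the filter through testis, so these shares are not read as low or high. *Adam32* was at 0.329, 0.677 and 1.37 FPKM in neural tissue and 0, 0.0761 and 0.530 FPKM in heart and colon, higher by 2.34 (SE 0.21, edgeR adjusted p 1.41e-10), and *Adam12* at 0.713, 0.852 and 1.37 FPKM in brain, 0.796, 0.951 and 1.38 FPKM in cerebellum and 0.0504, 0.127 and 0.985 FPKM in heart and colon, higher by 2.53 (SE 0.26, edgeR adjusted p 3.42e-09). Of the heart and colon libraries, only female heart replicate 3 reached the neural range of *Adam12*, and without it the difference was 2.90. Of the 7 lower members 5 were proteases. *Adam17* differed by -1.08 (SE 0.07, edgeR adjusted p 8.43e-14), from 3.73, 5.58 and 8.02 FPKM in neural tissue to 5.11, 12.2 and 16.4 FPKM. *Adam33* differed by -2.80 (SE 0.26, edgeR adjusted p 2.76e-10), with 0.0307, 0.108 and 0.274 FPKM in neural tissue and 0.419, 0.663 and 1.61 FPKM in heart and colon, without overlap. Of all genes called lower, 16.2% did not overlap.

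Other lower members overlapped between the groups. *Adam19* had 2.16, 2.74 and 3.49 FPKM in neural tissue against 2.25, 5.98 and 10.1 FPKM, a difference of -1.37 (SE 0.15, edgeR adjusted p 1.47e-08), and *Adam8* 0.0818, 0.280 and 0.569 FPKM against 0.0677, 1.06 and 2.28 FPKM, a difference of -1.44 (SE 0.28, edgeR adjusted p 5.56e-05). *Adam9* differed by -0.30 (SE 0.07, edgeR adjusted p 0.000427), with 11.8, 13.3 and 15.5 FPKM in neural tissue and 8.74, 14.8 and 23.4 FPKM in heart and colon, and leaving out 1 library moved this difference to between -0.49 (testis replicate 2, which is in neither group) and -0.26 (male heart replicate 1). With library totals it was -0.11 and not called. Without female heart replicate 3 the differences of *Adam17*, *Adam33*, *Adam19*, *Adam8* and *Adam9* were -1.06, -2.68, -1.37, -1.25 and -0.28. *Adam2* was called lower by -1.75 on 13 against 28 counts, and without male heart replicate 2 the call was lost (-0.39). The median of all genes in this comparison was 0.11 with TMM factors and 0.30 with library totals.

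Brain against cerebellum gave 4 members higher and 2 lower, against 15.3% and 10.8% of all genes tested, and 11 members had 10 counts or fewer in these 12 libraries. *Adam17* was lower in brain by -0.75 (SE 0.09, edgeR adjusted p 4.89e-07) and *Adam1a* by -0.81 (SE 0.19, edgeR adjusted p 0.00191), the latter from 0.678, 0.827 and 1.06 FPKM in cerebellum to 0.305, 0.454 and 0.611 FPKM in brain. In both the 6 brain libraries lay under the 6 cerebellum libraries, as they did for 66.1% of all genes called lower. *Adam32* was higher in brain by 1.40 (SE 0.19, edgeR adjusted p 3.91e-06), with 0.737, 1.15 and 1.37 FPKM against 0.329, 0.448 and 0.616 FPKM, and *Adam18* by 1.43 (SE 0.40, edgeR adjusted p 0.00935), with 0.200, 0.349 and 0.633 FPKM against 0.0543, 0.129 and 0.248 FPKM. Brain libraries of *Adam32* were all above the cerebellum libraries and those of *Adam18* overlapped. Of all genes called higher, 59.0% did not overlap. *Adam7*, known from the epididymis, had 0.0169, 0.0711 and 0.132 FPKM in brain against 0, 0 and 0.00942 FPKM, which is 50 counts against 1, a ratio of 42.9 with a 95% counting interval from 7.36 to 1729. *Adam28* had 14 counts against 0, at least 4.01-fold higher by the floor of 3 counts over the 6 libraries, with a fitted difference of 3.93 (edgeR adjusted p 0.012), and without female brain replicate 3 it was 3.32 (adjusted p 0.071). Choroid plexus markers, led by *Ttr*, summed to 17.0 to 1548 FPKM in brain and 1017 to 3848 FPKM in cerebellum, and their part in these differences was not tested.

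Outside neural tissue, colon against brain, cerebellum and heart gave 11 members higher and 7 lower, against 30.6% and 31.6% of all genes tested. In this comparison and in those of heart and ovary with somatic tissues, 8 members had 10 counts or fewer and could hardly be called. *Adam17* had 11.6, 14.0 and 16.4 FPKM in colon against 3.73, 6.91 and 12.2 FPKM, higher by 0.97 (SE 0.07, edgeR adjusted p 6.24e-12), with 1 heart library in the colon range. *Adam8* had 0.841, 1.55 and 2.28 FPKM against 0.0677, 0.265 and 1.06 FPKM, higher by 2.31 (SE 0.27, edgeR adjusted p 4.38e-08). Female heart replicate 3 was the library that overlapped in both. *Adam4* had 0.934, 1.70 and 2.62 FPKM against 0.242, 0.445 and 1.43 FPKM, higher by 1.67 (SE 0.23, edgeR adjusted p 6.74e-07), and *Adam33* 0.434, 0.841 and 0.994 FPKM against 0.0307, 0.165 and 1.61 FPKM, higher by 1.70 (SE 0.26, edgeR adjusted p 2.34e-06). *Adam28*, a protease of lymphocytes, had 38 counts in colon and 19 in the other 17 libraries, higher by 4.18 (SE 0.65, edgeR adjusted p 9.24e-06). Without male colon replicate 1, the library with lymphocyte markers, *Adam8* was higher by 2.27 and *Adam28* by 4.04. The median of all genes was -0.13 in this comparison with TMM factors and 0.03 with DESeq2.

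The members lower in colon included the 3 neural ones. *Adam11* was lower by -3.67 (SE 0.22, edgeR adjusted p 8.41e-14), *Adam22* by -2.86 (SE 0.18, edgeR adjusted p 1.86e-13) and *Adam23* by -1.81 (SE 0.16, edgeR adjusted p 1.46e-10). *Adam32* had 0, 0.0364 and 0.0761 FPKM in colon against 0.237, 0.523 and 1.37 FPKM, lower by -4.18 (SE 0.31, edgeR adjusted p 5.75e-12), and *Adam12* 0.0780, 0.164 and 0.282 FPKM against 0.0504, 0.868 and 1.38 FPKM, lower by -1.84 (SE 0.32, edgeR adjusted p 1.43e-05). The colon libraries of *Adam32* lay under all others and those of *Adam12* did not. Of all genes called lower in colon, 14.7% did not overlap with the other somatic tissues. *Adam6a* was called higher in colon on 12 counts against 1, by 4.06 (edgeR adjusted p 0.00197), and without male colon replicate 1 it was 2.36 (adjusted p 1). *Adam7* was called higher by 2.67 (edgeR adjusted p 0.00735), and without male colon replicate 1 it was 1.97 (adjusted p 0.108). *Adam3* was not called in colon (1.33, edgeR adjusted p 0.0719) but was without male colon replicate 1 (1.68, adjusted p 0.0232) or 2 (1.65, adjusted p 0.0268). It was also called without female colon replicate 2 (1.59, adjusted p 0.0278) or female heart replicate 1 (1.62, adjusted p 0.0336). It followed the spermatid markers among colon libraries, with 0.408, 0.224 and 0.157 FPKM in female replicates 1 and 3 and male replicate 3 and at most 0.0526 FPKM in the other 3, and what these markers contribute was not tested. The call of *Adam15* (-0.35, edgeR adjusted p 0.0225) was lost without female colon replicate 1 or 2, male colon replicate 3 or testis replicate 2 (-0.28, -0.30, -0.33 and -0.24). That of *Adam2* (1.62, edgeR adjusted p 0.0304) was lost without female colon replicate 3 or male colon replicate 1 or 3 (1.24, 1.49 and 1.35).

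Heart against brain, cerebellum and colon gave 5 members higher and 7 lower, against 23.6% and 29.5% of all genes tested. All-gene medians were -0.33 with TMM factors, 0 with DESeq2 and -0.76 with library totals. *Adam33* was at 0.419, 0.444 and 1.61 FPKM in females and 0.662 and 0.423 FPKM in males, against 0.0307, 0.166 and 0.994 FPKM, higher by 2.04 (SE 0.27, edgeR adjusted p 3.08e-07). *Adam19* was at 2.25, 5.58 and 6.46 FPKM in females and 5.98 and 9.0 FPKM in males, against 2.16, 3.24 and 10.1 FPKM, higher by 1.15 (SE 0.17, edgeR adjusted p 2.94e-06). The heart libraries overlapped with the other tissues in both. *Adam32* was called higher by 1.05 (SE 0.22, edgeR adjusted p 0.00022), and with library totals it was 0.56 and not called. Its mean of 0.391 FPKM in heart was above colon (0.0381 FPKM) but below brain (1.11 FPKM) and cerebellum (0.465 FPKM). *Adam17* was called higher by 0.48 (SE 0.08, edgeR adjusted p 8.61e-06) although its mean of 7.66 FPKM was below the 8.57 FPKM of the other tissues, and with library totals the difference was -0.01. *Adam9* had the highest mean in heart with counted exons, at 8.74, 9.98 and 18.9 FPKM (female) and 13.1 and 11.0 FPKM (male), while reference lengths put *Adam10* first, at a mean of 16.9 FPKM against 12.0 FPKM. *Adam9* was called higher by 0.24 (SE 0.08, edgeR adjusted p 0.0148), a direction that turned to -0.24 with library totals, and without male heart replicate 1 the value was 0.18 (adjusted p 0.179).

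Lower in heart were the neural members and others. *Adam23* had 0.272, 0.330 and 1.30 FPKM (lowest, median, highest) in heart, lower by -4.22 (SE 0.21, edgeR adjusted p 2.90e-15), *Adam22* was lower by -2.46 (SE 0.19, edgeR adjusted p 2.23e-11) and *Adam11* by -1.26 (SE 0.20, edgeR adjusted p 6.33e-06). *Adam23* did not overlap with other tissues, as 22.7% of all genes called lower in heart did not. *Adam21*, a testis protease gene, had 7 counts in heart and 239 in the other 18 libraries, lower by -4.31 (SE 0.81, edgeR adjusted p 6.49e-05), and *Adam10* was lower by -0.60 (SE 0.11, edgeR adjusted p 7.38e-05). Without female heart replicate 3 the differences of *Adam33*, *Adam19*, *Adam17*, *Adam9*, *Adam23* and *Adam10* were 1.79, 1.15, 0.43, 0.20, -4.53 and -0.63. The counts were then 5 higher and 8 lower, and *Adam4* joined the lower ones (-0.80, adjusted p 0.0207). That library had the highest heart level of several members, among them *Adam12* at 0.985 FPKM against 0.136 FPKM or less, *Adam33* at 1.61 FPKM and *Adam4* at 1.43 FPKM, beside its lymphocyte and fibroblast markers, whose part was not tested.

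Ovary against the somatic tissues gave 7 members higher and 5 lower, against 24.0% and 19.0% of all genes tested in edgeR. DESeq2 called 7 higher and 8 lower, against 13.8% and 17.2% of the genes it tested and 19.5% and 24.3% of those it gave an adjusted p. *Adam8* was at 1.57, 3.40 and 2.94 FPKM against 0.0677, 0.304 and 2.28 FPKM, higher by 2.23 (SE 0.30, edgeR adjusted p 1.04e-06). *Adam12* was at 1.77, 2.21 and 2.30 FPKM against 0.0504, 0.751 and 1.38 FPKM, higher by 1.99 (SE 0.29, edgeR adjusted p 2.63e-06). Of the members called higher, only *Adam12* had all 3 ovary libraries above the 23 somatic ones. Of all genes called higher, 42.5% did. *Adam33* was higher by 1.97 (SE 0.29, edgeR adjusted p 3.30e-06), *Adam17* by 0.46 (SE 0.09, edgeR adjusted p 0.000205) and *Adam5* by 1.36 (SE 0.28, edgeR adjusted p 0.00023). *Adam22*, at 0.628, 0.572 and 0.795 FPKM, was lower by -3.97 (SE 0.27, edgeR adjusted p 4.03e-12), *Adam11*, at 0.321, 0.608 and 0.531 FPKM, by -3.00 (edgeR adjusted p 2.15e-09) and *Adam23*, at 1.98, 2.60 and 2.46 FPKM, by -1.58 (edgeR adjusted p 4.00e-07). The first 2 of these were within the range of heart and colon, and 2 ovary libraries of *Adam23* were above it. *Adam32* was lower by -1.37 (SE 0.31, edgeR adjusted p 0.00061) and *Adam15* by -0.49 (edgeR adjusted p 0.0226), a call lost without ovary replicate 1 (-0.28, adjusted p 0.271) and with library totals (-0.04). *Adam1a* was called higher by 0.66 (edgeR adjusted p 0.0056), and without ovary replicate 1 by 0.49 (adjusted p 0.0892). The all-gene median was 0 with TMM factors and 0.39 with library totals.

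Males and females were compared within each somatic tissue. In edgeR 0 of 33 members were called in brain, cerebellum, heart or colon, with 1, 0, 4 and 3 members at an unadjusted p under 0.05, near the 4.83%, 3.06%, 9.65% and 8.85% of all genes. Of all genes, 0.0201% were higher and 0.0167% lower in male brain, 0.0167% and 0.0134% in male cerebellum, 0.0234% and 0.0401% in male heart, and 0.0903% and 0.234% in male colon. DESeq2 called 1 member, *Adam12* in heart, lower in males, and 0 in the other tissues, and in male heart it called 44 of all genes higher and 209 lower. *Adam12* was at 0.0583, 0.136 and 0.985 FPKM in female heart and 0.0579 and 0.0504 FPKM in male heart, lower by -2.35 in edgeR (SE 0.64, adjusted p 0.184) and by -2.37 in DESeq2 (adjusted p 0.0215). Both male libraries were under the 3 female ones, the lowest of which was close to them. Without female heart replicate 1 or 2 it was called in edgeR at -2.79 (adjusted p 0.0147) and -2.68 (adjusted p 0.0405), and without female heart replicate 3, which carries the highest value, it was -0.89 (adjusted p 0.919). In colon, *Adam3* had 16, 3 and 11 counts in females and 0, 0 and 7 in males, and was called lower in males without male colon replicate 3 (-7.04, adjusted p 0.0345), which leaves 2 male libraries with no count. The interaction of sex and tissue was called for 0 members in edgeR, beside 0.0167% of all genes, and for 0 in DESeq2, beside 0.288%. In edgeR 2 members, *Adam12* and *Adam3*, were at an unadjusted p under 0.05, as were 6.77% of all genes.

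*Adam7* and *Adam28* were close to absent. *Adam7* had 75 counts over the 29 libraries, 5 of them in testis, and *Adam28* had 62, so neither could be compared in level at this depth beyond the values given above. The epididymis markers in testis came almost entirely from *Cst8*, and *Adam7* was not detectable in testis replicate 1.

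Genes that act with the ADAM proteins were taken from lists of known partners. Their counts of calls stand beside 40.6% higher and 26.7% lower of all genes tested in testis and 38.2% and 26.3% in neural tissue, and several of these short lists are near those shares. ADAM10 and ADAM17 depend on tetraspanins and iRhoms for transport, and 3 of 8 tested partners were higher and 3 lower in testis than in the other groups. *Frmd8*, which stabilises iRhoms, was at 10.9 to 11.3 FPKM in testis against 1.20 to 17.5 FPKM elsewhere (log2 difference 1.15, edgeR adjusted p 1.28e-06), and the ADAM10 tetraspanin *Tspan15* at 1.12 to 1.74 FPKM against 1.01 to 13.9 FPKM (-1.40, edgeR adjusted p 1.27e-08). Both overlapped between groups. In neural tissue 5 of 8 were higher and 2 lower than in heart and colon. *Tspan5*, another ADAM10 partner, was at 30.9, 37.0 and 42.8 FPKM (lowest, median, highest) in neural tissue against 2.59, 3.75 and 8.05 FPKM (2.98, edgeR adjusted p 8.62e-19), and *Rhbdf2*, the iRhom of immune cells, at 0.0407, 0.115 and 0.259 FPKM against 0.611, 1.22 and 1.74 FPKM (-3.41, edgeR adjusted p 2.40e-14). Neither overlapped between neural tissue and heart or colon.

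Of the 5 inhibitors, 1 was higher and 2 were lower in testis. *Timp2* was at 134 to 143 FPKM in testis against 16.8 to 72.1 FPKM elsewhere (2.28, edgeR adjusted p 1.97e-16), at a locus that also carries Cep295nl, and *Timp3*, an inhibitor of ADAM17, at 16.6 to 20.7 FPKM against 33.1 to 91.4 FPKM (-1.25, edgeR adjusted p 9.24e-09). Both were without overlap, in opposite directions. Neural tissue had 1 inhibitor higher and 3 lower, with *Timp4* at 13.7 to 83.2 FPKM against 0.167 to 5.88 FPKM (4.34, edgeR adjusted p 5.89e-15). Proprotein convertases remove the prodomain that keeps ADAM proteases inactive. *Pcsk4*, the convertase of sperm, had 27.2 to 30.6 FPKM in testis against 0.156 to 0.770 FPKM elsewhere (6.23, edgeR adjusted p 3.03e-21), while 3 of the 5 convertases were lower, among them *Pcsk6*, at a locus with Gm45213, at 1.69 to 1.99 FPKM against 3.13 to 33.1 FPKM (-2.35, edgeR adjusted p 1.04e-10). In neural tissue 0 of 5 convertases were called higher by edgeR and 4 lower.

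Of 12 tested genes for the maturation of sperm ADAM proteins, 10 were higher and 2 lower in testis than in the other groups, with a median log2 difference of 9.13 beside 0.11 over all genes. This list was chosen by known role in sperm, so its main direction was known beforehand, and neither value is read as a result. *Clgn*, the chaperone that pairs the fertilin subunits, was at 93.0 to 120 FPKM in testis against 0 to 4.12 FPKM elsewhere (9.12, edgeR adjusted p 4.56e-22), and *Cmtm2a*, needed for ADAM3 on the sperm surface, at 128 to 142 FPKM against 0 to 3.70 FPKM (12.40, edgeR adjusted p 3.16e-23), at a locus that also carries Cmtm1 and Gm45711. *Clgn* was also higher in neural tissue than in heart and colon, at 1.87, 2.43 and 4.12 FPKM against 0, 0.0417 and 0.465 FPKM (6.24, edgeR adjusted p 1.01e-14). *Tpst2*, a tyrosine sulfotransferase of sperm proteins, was lower in testis, at 2.51 to 3.92 FPKM against 4.22 to 27.3 FPKM (-1.03, edgeR adjusted p 9.18e-06). The first 2 lay above and *Tpst2* under all other libraries.

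The LGI proteins are ligands of the neural members. All 4 were higher in neural tissue than in heart and colon, with *Lgi1* at 7.26, 15.2 and 24.3 FPKM against 0.153, 0.301 and 1.13 FPKM (4.79, edgeR adjusted p 2.05e-18) and *Lgi3* at 11.4, 16.1 and 22.3 FPKM against 0.0238, 0.242 and 0.781 FPKM (5.83, edgeR adjusted p 3.07e-18). All 4 were lower in testis than in the other groups, where *Adam23* was called higher, and against ovary 2 were higher and 1 lower in testis, beside 37.8% and 26.5% of all genes. Ligands of the EGF receptor family, shed by ADAM10 and ADAM17, were 1 higher and 3 lower of 7 tested in testis, with *Nrg1* at 0.0126 to 0.0569 FPKM against 0.349 to 3.16 FPKM (-4.82, edgeR adjusted p 2.23e-10). Of 10 other substrates 8 were lower in testis and 1 was higher, with *Prnp*, the prion protein gene, counted together with Prn, at 9.34 to 12.9 FPKM against 23.8 to 223 FPKM (-2.46, edgeR adjusted p 2.49e-15). In neural tissue 6 of the 10 were higher and 2 lower, with *Prnp* at 147, 186 and 223 FPKM against 24.3, 39.2 and 52.5 FPKM (2.20, edgeR adjusted p 5.74e-19).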

How the data were processed

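The deposited values are counts of reads per gene in 29 short-read libraries, made by the authors with Iso-seq loci merged with Ensembl genes. The submitters' processing notes name FastQC 0.11.8, MultiQC 0.9, HISAT2 2.0.5 and featureCounts 1.6.3 on mm10. No strand option is named for the counting, so reads of genes that overlap on opposite strands may be shared. The deposited annotation gives start and end coordinates, and the deposited table of locus pairs gives names only.

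Members were found by symbol in GENCODE M21 with Iso-seq loci by the deposited pairs. Gm5346, named Adam34l in RefSeq, is not a member. Members and lists were chosen with earlier results of these data known. Values are given for up to 5 members per direction and comparison, taken by lowest adjusted p, for the highest member of each tissue, and for up to 2 genes in each direction of each list of partner genes. Other members, such as *Adam2* in colon, were named after their values were seen.

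FPKM used the union of exons of the counted locus and the library total. Differences were tested with edgeR 4.0.16 (limma 3.58.1, R 4.3.3) quasi-likelihood F tests, TMM factors, filterByExpr and a mean for each of the 10 groups, adjusted by Benjamini-Hochberg across every tested gene. The code was tested on simulated data. DESeq2 1.42.0, RLE factors, no filter, a replicate block, other levels for expressed, reference exon lengths and leaving out each library were tried. Reference exon lengths covered the reference exons of all genes of a locus, and the counts stayed the same. Library totals in place of TMM were added after seeing the data. Tables and plots used Python 3.11.15, numpy 2.4.6, pandas 2.3.3 and matplotlib 3.10.9. Protein sequences were not available and not analysed.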

Additional observations from a re-analysis of the deposited data

How the results depend on the processing

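The 66 member results compared here are those with the lowest adjusted p of each direction, so they are more stable than calls near the threshold. All 66 kept direction and call under DESeq2, RLE factors and the replicate block. Without the low-count filter 65 did, and *Adam9* in heart (0.24) was no longer called. With library totals in place of TMM, added after seeing the data, 61 of 66 did, and *Adam9* in neural tissue (-0.11), *Adam32* in heart (0.56) and *Adam15* in ovary (-0.04) were no longer called. There *Adam17* in heart turned to -0.01 and *Adam9* in heart to -0.24, since library totals move all genes of heart down, and 2 members were higher in heart in place of 5. Under DESeq2, 8 members were lower in ovary in place of 5, and 1 lower in male heart in place of 0, and the cause was not tested. With the same counts divided by reference exon lengths, 5 members were widely expressed in place of 8, since a longer length lowers FPKM. The neural share of the family in brain was then 27.6% to 32.2% in place of 57.0% to 62.4%.

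Leaving out 1 library at a time, 1911 values of these 66 results kept their call and 3 did not, which were *Adam28* in brain without female brain replicate 3 (3.32), *Adam9* in heart without male heart replicate 1 (0.18) and *Adam15* in ovary without ovary replicate 1 (-0.28). Over all members and comparisons of groups, a call was lost 37 times, in 15 results of 10 members, and gained 35 times, in 14 results of 12 members. Leaving out 1 library moved *Adam9* in heart to between 0.18 and 0.38 (the latter without testis replicate 2, in neither group) and *Adam15* in ovary to between -0.64 and -0.28. Members lower in male heart ranged from 0 to 1, and in male colon from 0 to 1. The block on replicate number left all 23 counts of calls within 1.5 times. Libraries of the same number correlated at -0.26 to 0.15 with a median of 0 after removing group means, and 6 of 29 were closest to a library of their own number.

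The higher and lower calls over all genes shifted by more than 10 points under these settings. DESeq2 gave 6274 and 7812 in ovary (TMM 7176 and 5673), 8 and 27 in male brain (6 and 5), and 44 and 209 in male heart (7 and 12). No filter gave 8 and 22 in male heart. Library totals gave 3281 and 4058 in brain against cerebellum (4564 and 3232), 4522 and 12462 in heart (7054 and 8823), 76 and 42 in male colon (27 and 70), 11706 and 3427 in ovary, and 9083 and 11520 in testis against ovary (11313 and 7919). Depth limits members with few counts, such as *Adam7* and *Adam28*.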
